A study of Mus musculus with 8 samples.

Results

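The 9 genes described here encode transcription factors tied to the naive, memory and stem-like states of CD8+ T cells: Tcf7 (the protein TCF1), Lef1, Bach2, Id3, Foxp1, Foxo1, Satb1, Myb and Bcl6. They were chosen by name, and all 9 were found among the 20029 genes of the deposited expression table and among the 10732 genes tested. RNA came from CD8+ T cells sorted as living CD45+ TCRβ+ CD8+ cells, 1000 per library, from subcutaneous MC38-OVA tumours, a mouse colon carcinoma line that carries the model antigen ovalbumin. Pglyrp1 knockout (KO) mice, strain B6.129S4-Pglyrp1tm1.1Lky/J, gave 4 libraries (KO 1 to KO 4), and C57BL/6J wild-type (WT) mice gave 4 (WT 6 to WT 9). All 8 mice bore the tumour, and the sources used here do not give their age, the time from injection to harvest or whether KO and WT animals were littermates. The design text counts 4 mice per genotype, with 1 library from each, so replicate error here is the variation from mouse to mouse. The comparison addresses how these factors differ in tumour-infiltrating CD8+ T cells when Pglyrp1, a secreted peptidoglycan-binding protein, is missing from the animal.

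CD8+ T cells that stay in chronic contact with antigen, as in tumours, include a self-renewing fraction that expresses TCF1 and gives rise to short-lived effector and exhausted cells. TCF1 and LEF1 are HMG-box proteins that bind DNA with β-catenin or with Groucho repressors, FOXO1 is a forkhead factor held out of the nucleus by AKT signalling, and BACH2 competes with AP-1 factors for their sites. ID3 binds E proteins and keeps them off DNA, BCL6 represses Prdm1 and is repressed by its product BLIMP-1, and the remaining members (FOXP1, SATB1 and MYB) act in quiescence, chromatin folding and self-renewal. These roles are background and were not measured here.

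Promoter sequences are shown for Tcf7 and Lef1, the pair of members with the highest levels, and for Myb, the member whose fitted difference was the largest in the direction opposite to theirs. RefSeq (GRCm38.p6) gives 20 promoter windows of 300 bases for the 9 members, each from 250 bases before to 50 after a start site. Both strands were searched for the letters CTTTGA or CTTTGT for TCF and LEF factors, GTAAACA for FOXO factors and TGANTCA for BACH factors, and no match shown here overlaps another. Capitals mark the matches in the windows below, which lie at chr11:52282546-52282845 (Tcf7, minus strand), chr3:131156044-131156343 (Lef1, plus strand, the most downstream of its 4 starts) and chr10:21160935-21161234 (Myb, minus strand).
Tcf7: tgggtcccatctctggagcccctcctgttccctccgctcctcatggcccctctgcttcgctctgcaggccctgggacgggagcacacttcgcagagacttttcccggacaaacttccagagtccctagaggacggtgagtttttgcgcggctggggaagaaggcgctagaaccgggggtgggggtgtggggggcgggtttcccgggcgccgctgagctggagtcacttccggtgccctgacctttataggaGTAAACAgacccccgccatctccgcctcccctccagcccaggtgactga
Lef1: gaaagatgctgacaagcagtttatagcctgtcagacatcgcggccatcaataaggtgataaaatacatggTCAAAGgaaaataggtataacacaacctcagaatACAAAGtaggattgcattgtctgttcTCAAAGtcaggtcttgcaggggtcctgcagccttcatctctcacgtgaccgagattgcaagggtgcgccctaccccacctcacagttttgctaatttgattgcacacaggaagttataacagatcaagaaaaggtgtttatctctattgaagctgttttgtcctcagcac
Myb: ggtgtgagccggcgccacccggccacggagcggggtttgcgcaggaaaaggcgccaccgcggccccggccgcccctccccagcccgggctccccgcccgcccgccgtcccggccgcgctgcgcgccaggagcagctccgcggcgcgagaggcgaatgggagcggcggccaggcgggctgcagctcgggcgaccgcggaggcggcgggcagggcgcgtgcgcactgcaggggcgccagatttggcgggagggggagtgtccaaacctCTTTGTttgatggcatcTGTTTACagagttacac
Where a gene has several windows, one with a match is shown: the other Tcf7 window and the other 3 of Lef1 held 0 matches. The Tcf7 window held 1 FOXO match and no TCF/LEF match, the Lef1 window 3 TCF/LEF matches, and the Myb window 1 of each. Over all members, the FOXO letters were found for Tcf7 and Myb, 2 of 9 genes, beside 4.05% of 27025 genes with such windows. The TCF/LEF letters were found for 6 of 9 members (Lef1, Bach2, Foxp1, Satb1, Myb and Bcl6), beside 34.5% of genes, and the BACH letters for 0 of 9, beside 8.97%. Genes differ in their number of windows, windows of a gene can overlap, and a match says only that these letters are present. Counted by window, the TCF/LEF letters were in 8 of 20 member windows, beside 31.2% of all 32851 windows. Overlapping Satb1 windows among these 8 hold the same match, which is counted in each. The FOXO letters were in 2 of 20, beside 3.65%, and the BACH letters in 0 of 20, beside 7.81%.

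None of the 9 members differed between KO and WT cells by the test over all genes. Of the members, 6 had lower fitted values in KO cells (Tcf7, Lef1, Id3, Foxp1, Foxo1 and Satb1) and 3 had higher ones (Bach2, Myb and Bcl6). The KO and WT values overlapped for all 9. The larger contrast lay within the genotypes. Within WT the highest library held 5.12 times as much Tcf7 and 3.31 times as much Lef1 RNA as the lowest, and KO 1 held 9.39 times as much Tcf7 as KO 4. Values are given in TPM, the share of transcripts after scaling all libraries to the same total of 1000000, and differences are KO minus WT on the log2(TPM + 1) scale.

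The targeted gene Pglyrp1 (chromosome 7, 18871331 to 18890459) had values of 123, 210, 208 and 153 TPM in WT 6 to WT 9, and every KO library listed it at 0. Sums of the deposited scores ran from 2223162 to 3342847, and 11935 to 13300 genes were above 0. T cell identity genes were abundant in every library: Cd3e lay between 675 and 1011 TPM and Cd8a between 376 and 506 TPM. Of 9 such genes, 1 had groups that did not overlap, beside 2.4% of all genes lower in KO. It was Cd8b1, at 1039 to 1329 TPM in KO and 1340 to 1728 TPM in WT libraries (limma adjusted p = 0.502). Cd4 was at 4.50 to 66.7 TPM in KO, highest in KO 3, and at 0.393 to 2.25 TPM in WT libraries (limma adjusted p = 0.395). It was the 1 of 6 CD4 and regulatory T cell markers with groups apart, beside 2.62% of all genes higher in KO. Of the 6, 5 had positive differences and 1 a negative one. Their sums overlapped, at 127 to 232 TPM in KO and 56.9 to 198 TPM in WT libraries. The summed level of 12 myeloid markers was 3704 TPM in KO 3 and 6483 TPM in KO 4, 239 and 242 TPM in KO 1 and KO 2, and 61.8 to 161 TPM in WT libraries. That of 7 stromal, epithelial and endothelial markers was 117 TPM in KO 4 and 19.8 to 38.6 TPM in the other libraries, although 1 of them, Pecam1, was lowest in KO 4 (12.2 TPM). The summed level of 8 B cell markers was 51.6 TPM in WT 6 and 54.7 TPM in WT 9, where all 8 were above 0, 8.10 and 10.1 TPM in WT 7 and WT 8, and 6.05 to 21.1 TPM in KO libraries. Pax5 and Ebf1, which define the B lineage, were at most 0.407 and 2.36 TPM in any library. Ribosomal protein genes held 36.7% and 36.3% of the TPM of WT 6 and WT 9 and 20.3% to 29.7% elsewhere. In bulk samples, fewer cells of a type and less RNA per cell cannot be told apart.

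Tcf7 lies on chromosome 11 (52252371 to 52283014, minus strand) and was the most abundant member. It was at 233, 155, 85.9 and 24.8 TPM in KO 1 to KO 4 and at 329, 64.3, 100.01 and 309.96 TPM in WT 6 to WT 9. WT 6 and WT 9 were above all KO libraries, KO 4 was below all others, and the remaining WT libraries fell among the KO values. The means were 125 ± 89.8 TPM in KO and 201 ± 138 TPM in WT cells (SD, n = 4 each). The difference was -0.76 (SE 0.73, 95% interval -2.40 to 0.88; limma adjusted p = 0.780; two-sided exact permutation p = 0.457).

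Lef1, the HMG-box relative of Tcf7 (chromosome 3, 131110471 to 131224356, plus strand), was at 111, 70.4, 40.4 and 26.1 TPM in KO 1 to KO 4 and at 183, 55.3, 68.1 and 183 TPM in WT 6 to WT 9. The libraries stood nearly in the order seen for Tcf7, with WT 6 and WT 9 highest and KO 4 lowest, and the groups overlapped. The means were 62.0 ± 37.5 TPM in KO and 122 ± 70.4 TPM in WT cells (SD, n = 4 each). The difference was -0.97 (SE 0.52, 95% interval -2.14 to 0.20), with a limma adjusted p of 0.603 and an exact permutation p of 0.200, the largest negative one among the members.

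The forkhead genes spanned a narrower range. Foxo1 (chromosome 3, 52268336 to 52353221, plus strand) was at 11.4, 7.86, 7.18 and 5.05 TPM in KO 1 to KO 4 and at 17.9, 11.7, 7.99 and 14.2 TPM in WT 6 to WT 9. Of the WT libraries 3 lay above every KO library, and WT 8 lay within the KO range. The difference of -0.65 (SE 0.30, 95% interval -1.31 to 0.02) had the smallest unadjusted p of the members, 0.0557, with a limma adjusted p of 0.560 and an exact permutation p of 0.0571. Foxp1, which keeps naive T cells quiescent (chromosome 6, 98925338 to 99522721, minus strand), was at 40.2, 23.9, 25.4 and 15.1 TPM in KO 1 to KO 4 and at 45.9, 25.6, 24.7 and 49.6 TPM in WT 6 to WT 9. Again WT 6 and WT 9 were highest and KO 4 lowest. Its difference was -0.47 (95% interval -1.21 to 0.26; limma adjusted p = 0.683).

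Satb1, a chromatin organiser of thymocytes and T cells (chromosome 17, 51736187 to 51833290, minus strand), was at 37.8, 25.998, 17.6 and 11.4 TPM in KO 1 to KO 4 and at 42.7, 18.4, 20.1 and 34.6 TPM in WT 6 to WT 9. KO 1 exceeded WT 9, so the highest libraries came from both genotypes. The difference was -0.35 (95% interval -1.22 to 0.51; limma adjusted p = 0.810), and with 1 library left out it ran from -0.07 without KO 4 to -0.62 without KO 1.

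Id3 (chromosome 4, 136143497 to 136145755, plus strand) was nearly level in the KO libraries, at 17.7, 24.2, 20.3 and 24.4 TPM in KO 1 to KO 4, and was at 76.0, 17.1, 12.5 and 63.3 TPM in WT 6 to WT 9. Its highest KO value was 1.38 times its lowest, where that ratio was 9.39 for Tcf7 and 4.25 for Lef1. Among WT libraries the ratio was 6.08 for Id3, 5.12 for Tcf7 and 3.31 for Lef1. KO 4, lowest of all libraries in Tcf7, was level with KO 2 in Id3 (24.4 and 24.2 TPM), and these were the highest KO values. The difference between genotypes was -0.56 (SE 0.53, 95% interval -1.75 to 0.63; limma adjusted p = 0.773; exact permutation p = 0.429), and with 1 library left out it ran from -0.16 without WT 6 to -0.99 without WT 8.

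Bach2 (chromosome 4, 32238804 to 32586108, plus strand) was at 6.93, 4.23, 8.08 and 5.89 TPM in KO 1 to KO 4 and at 9.35, 2.70, 2.43 and 9.05 TPM in WT 6 to WT 9. All KO values lay between the pairs of WT values, and the group means were nearly equal at 6.28 ± 1.63 TPM in KO and 5.88 ± 3.83 TPM in WT cells (SD, n = 4 each). The difference was 0.24 (95% interval -0.70 to 1.18; limma adjusted p = 0.887), and it was -0.03 without WT 8. Bcl6 (chromosome 16, 23965052 to 23988852, minus strand) was at 10.05, 5.44, 14.4 and 11.8 TPM in KO 1 to KO 4 and at 6.91, 7.65, 7.29 and 8.26 TPM in WT 6 to WT 9. It was the member with the tightest WT values, and its highest values came from KO 3 and KO 4, which also held the most myeloid marker RNA. The difference was 0.35 (95% interval -0.26 to 0.97; limma adjusted p = 0.714), and it was -0.01 without KO 3 and KO 4. Macrophages also transcribe Bcl6 and B cells transcribe Bach2, and the part of such cells in these values was not tested.

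Myb (chromosome 10, 21124935 to 21160984, minus strand) was at 5.89, 7.26, 2.69 and 1.68 TPM in KO 1 to KO 4 and at 4.06, 0, 0 and 3.93 TPM in WT 6 to WT 9. It was above 0 in every KO library and listed at 0 in WT 7 and WT 8, libraries in which the deposited score of Myb was 0 and that of the other 8 members was at least 6. Its deposited scores in KO libraries were 17, 24, 9 and 4, low values in a table of whole numbers, as were the scores of 6 and 7 for Bach2 in WT 7 and WT 8. The difference was 1.12 (SE 0.65, 95% interval -0.34 to 2.59), with a limma adjusted p of 0.635 and an exact permutation p of 0.229, the largest positive one among the members, and it depended on the pseudocount: 1.97 with 0.25 TPM and 0.44 with 5 TPM added.

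**Figure D1:**
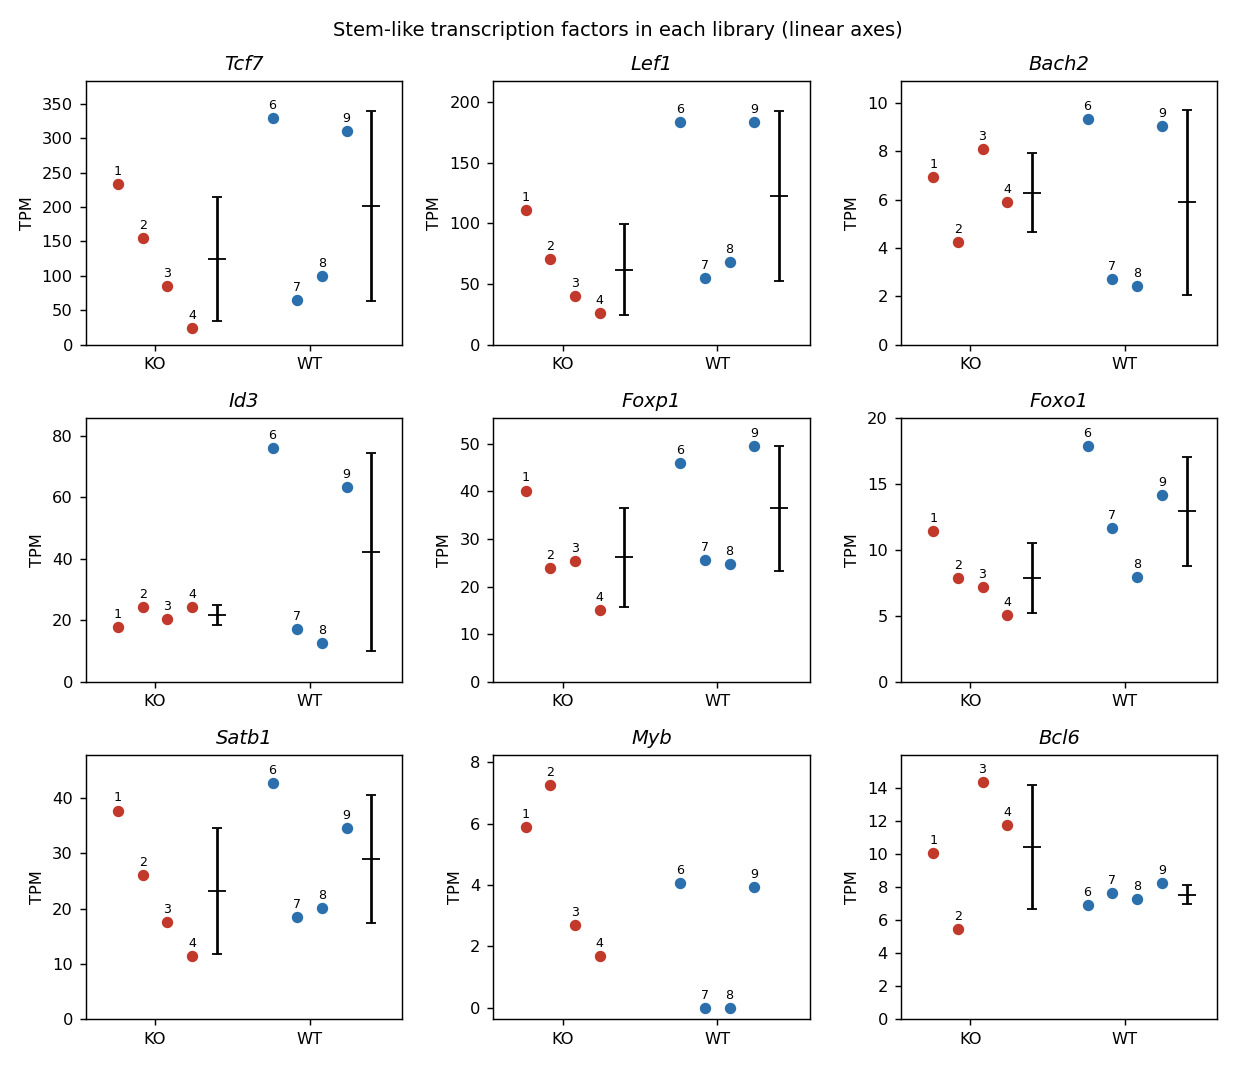
Level of each member in TPM (vertical axis, linear, from 0) in the 4 KO (red) and 4 WT (blue) libraries, with library numbers beside the points. Black bars are the mean and SD of each group (none for Myb, listed at 0 in WT 7 and WT 8); for Tcf7 the points range from 24.8 in KO 4 to 329 TPM in WT 6, and the groups overlap in all 9 panels.

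By limma, 0 of 9 members passed an adjusted p of 0.05, beside 0.028% of the 10732 genes tested (0.00932% lower and 0.0186% higher in KO), and 0 of 9 had an unadjusted p under 0.05, beside 9.08% of genes. Groups that did not overlap were seen for 0 of 9 members, beside 2.4% of genes lower and 2.62% higher in KO. Negative differences were found for 6 of 9 members, beside 44.8% of genes, and the median difference was -0.47 for the members and 0.04 for all genes tested. The 95% intervals ran from differences of -2.40 to 0.88 for Tcf7 and from -1.31 to 0.02 for Foxo1, so differences anywhere in these ranges are compatible with the values of 4 mice per group. The spread of Tcf7 within genotypes (residual SD 1.28 on the log2 scale) was larger than for 96.9% of the 8215 tested genes averaging 5 TPM or more, and those of Id3 (0.91) and Lef1 (0.90) were larger than for 92.9% and 92.7%.

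The sign of the difference depended on 4 libraries for most members. When KO 3 and KO 4, which held the most myeloid marker RNA, were left out, Tcf7 had a difference of 0.25 and Satb1 of 0.19. Without WT 6 and WT 9, Tcf7 was at 0.23, Id3 at 0.52 and Satb1 at 0.13, and 3 of 9 members were negative. With all 4 left out, 2 of 9 were negative, and Tcf7 was higher in KO by 1.23 (limma adjusted p = 0.196) and Lef1 by 0.52 (limma adjusted p = 0.476). These libraries were picked after the values were seen. WT 6 and WT 9 were the highest libraries for 6 of 9 members. Within KO, the libraries KO 3 and KO 4 were the lowest for Tcf7, Lef1, Foxo1, Satb1 and Myb. Leaving them out had to raise the KO minus WT difference of such members. The shifts and their limma p-values are therefore descriptions and no test of genotype. The part of myeloid, stromal, B cell and ribosomal protein transcripts in these shifts was not tested.

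**Figure D2:**
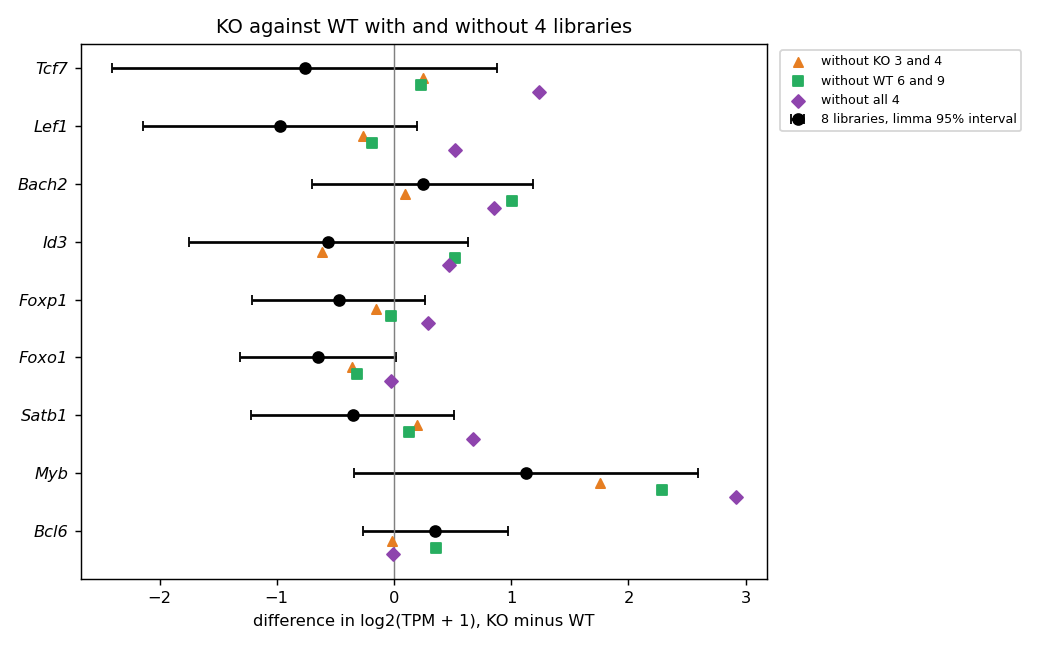
Difference in log2(TPM + 1), KO minus WT (horizontal axis), for each member, with all 8 libraries and its limma 95% interval (black) and without KO 3 and 4 (orange), WT 6 and 9 (green) or all 4 (purple). Every black interval spans 0, and Tcf7 moves from -0.76 to 1.23 when the 4 libraries are left out. These 4 were picked after the values were seen, so the direction of this move was set by the choice.

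The members fell into patterns over the 8 libraries that did not divide the KO from the WT libraries. WT 6 and WT 9 each exceeded the other 6 libraries in 6 of 9 members (Tcf7, Lef1, Bach2, Id3, Foxp1 and Foxo1), beside 7.43% of genes tested. KO 4 was the lowest library in 5 of 9 (Tcf7, Lef1, Foxp1, Foxo1 and Satb1), beside 9.74% of genes. Both patterns were noticed in these data and are descriptions. After each gene was centred on its mean, the root mean square difference of log2(TPM + 1) over the 8 libraries was smallest between Foxp1 and Satb1 (0.21) and between Foxp1 and Foxo1 (0.22). Tcf7 was nearest to Lef1 (0.41) and farthest from Bcl6 (1.38). By mean TPM over all libraries the order was Tcf7 (163), Lef1 (92.2), Id3 (31.9), Foxp1 (31.3), Satb1 (26.1), Foxo1 (10.4), Bcl6 (8.97), Bach2 (6.08) and Myb (3.19). Lef1 was above Id3, and Satb1 above Foxo1, in 8 of 8 libraries. The other neighbours were less firmly ordered: Tcf7 was above Lef1, Foxp1 above Satb1 and Bach2 above Myb in 7 of 8, and Foxo1 above Bcl6 and Bcl6 above Bach2 in 6 of 8. Id3 exceeded Foxp1 in 4 of 8, so that pair was not ordered beyond its spread. This order takes the deposited values to be per transcript length, as their name says, which could not be checked.

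Genes whose profile over the 8 libraries was nearest to Tcf7, among 7818 genes averaging 5 TPM or more (clone and model names and pseudogenes left out, and the member itself), were Nsg2 (root mean square difference 0.29 on the log2 scale), Ccr7 (0.39), Lef1 (0.41), Pde2a (0.41) and Sh3bp5 (0.43), where the median gene was at 1.297. Ccr7, the lymph node homing receptor, ran from 84.2 TPM in KO 4 to 769 TPM in WT 6, the same lowest and highest libraries as Tcf7. Those nearest to Id3 were Idh2 (0.26), Klhdc1 (0.32), Rrp12 (0.32), Gpatch4 (0.34) and Pwp2 (0.34). Idh2, a mitochondrial isocitrate dehydrogenase, was at 19.1 to 26.1 TPM across the KO libraries, against 67.1, 23.4, 13.5 and 56.2 TPM in WT 6 to WT 9. The nearest genes to Lef1 were Usp28, Scml4, Sidt1, Trib2 and Sh3bp5 (0.21 to 0.30). Those to Bach2 were Naa25, Tnfrsf14, Abhd14a, Tle4 and Gpr146 (0.18 to 0.27), and Tle4 is a Groucho repressor. Foxp1 had Rapgef6, Dgka, Slc12a7, Rps24 and Chd3 (0.16 to 0.19), and Satb1 had Snhg12, Gpr18, Pecam1, Dgka and Pim2 (0.16 to 0.18). Foxo1 had Ccm2, Angel1, Fam189b, Ehd3 and Usp36 (0.14 to 0.20), while Myb had no gene nearer than 0.62 (Klra3, then Psmg4, Oxld1, Adk and Acn9). Bcl6 varied too little over the libraries for this comparison, which asked for a span of at least 1.5 on the log2 scale.

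**Figure D3:**
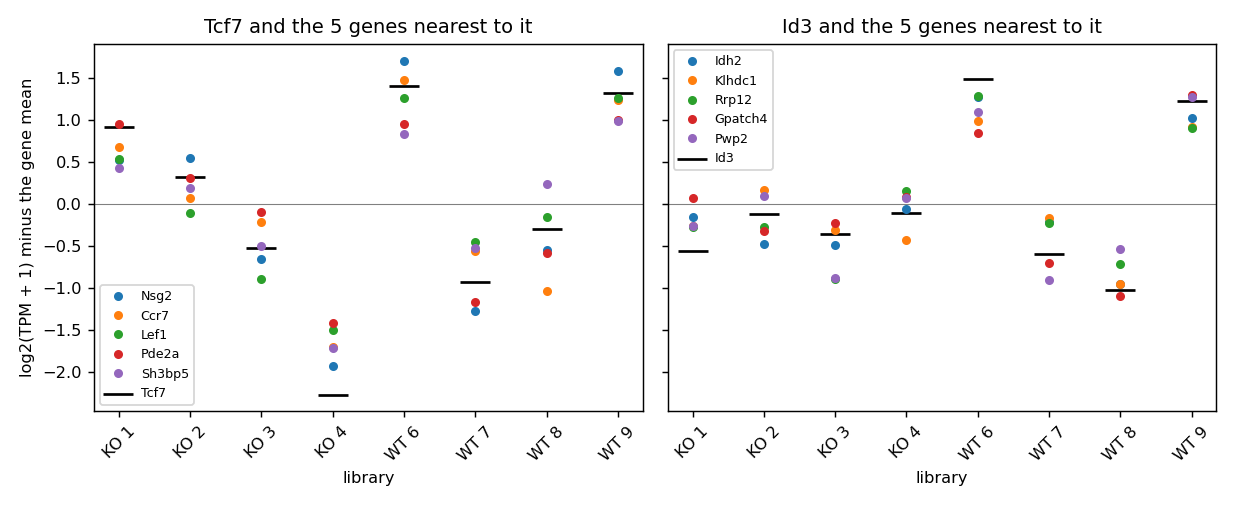
log2(TPM + 1) minus each gene's mean (vertical axis) in the 8 libraries (horizontal axis) for Tcf7 and for Id3 (black dashes) and the 5 genes nearest to each (coloured points). Tcf7 is lowest in KO 4, while Id3 is high in WT 6 and WT 9 only and differs among KO libraries by a factor of at most 1.38 in TPM.

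Factors known to drive effector and exhausted states were set beside the members. Of 19 such genes 17 were tested, and 16 had a positive difference. Of the 17, 1 was negative, beside 44.8% of all genes, and 0 passed the limma threshold over all genes. At an unadjusted p under 0.05, 4 of 17 were higher in KO, beside 6.01% of all genes, and the groups did not overlap for 2 of 17, Nr4a2 and Irf4, beside 2.62% of all genes. Nr4a2, a nuclear receptor induced by antigen receptor signals, was at 22.7 to 42.5 TPM in KO and 3.25 to 9.05 TPM in WT libraries (difference 2.22, limma adjusted p = 0.101). Irf4 had a difference of 1.47 (limma adjusted p = 0.395), Nr4a1 of 0.97 (0.473) and Prdm1, which encodes BLIMP-1, of 0.98 (0.527). The median difference was 0.55 in these genes and 0.04 in all genes tested. The WT libraries were split here too. The summed level of the 19 genes, with Id2 the most abundant, was 701 and 768 TPM in WT 6 and WT 9. It was 2392 and 2176 TPM in WT 7 and WT 8, and the KO sums of 1580 to 1905 TPM lay between these pairs. NK and myeloid markers lay in the same direction, with 6 of 6 and 11 of 11 tested genes positive. B cell markers lay in the other direction, with 3 of 3 tested genes negative. The summed level of 6 NK cell markers, one of which (Eomes) is also among the 17, was 93.9, 167, 217 and 202 TPM in KO 1 to KO 4 and 50.8, 67.0, 75.7 and 36.6 TPM in WT 6 to WT 9. The groups were apart in this sum, but taken singly they were apart for 1 of the 6 markers, beside 2.62% of all genes higher in KO. All 6 were above 0 in every KO library, and Ncr1, which defines NK cells, was at most 7.996 TPM and was listed at 0 in WT 6 and WT 8. The myeloid marker sums given above were highest in KO 3 and KO 4, where Nr4a2 was also highest. In KO 1 and KO 2 Nr4a2 was at 31.9 and 22.7 TPM. Nr4a1 ran the other way, at 135, 87.1, 76.0 and 53.4 TPM in KO 1 to KO 4. In the same order, Irf4 was at 29.5, 19.3, 29.9 and 21.9 TPM and Prdm1 at 11.1, 13.9, 13.2 and 16.4 TPM. The part of NK and myeloid transcripts in these differences was not tested.

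A set of 4 pairs, each of a member and 1 of these effector or exhaustion factors, was compared within each library, as the difference of their log2(TPM + 1). The pairs are called opposing for the cell states they are tied to, and antagonism between the 2 proteins is not implied. Id3 minus Id2, both inhibitors of E proteins, was -5.18, -4.95, -4.95 and -4.88 in KO 1 to KO 4 and -1.65, -5.84, -6.30 and -2.30 in WT 6 to WT 9. KO libraries held a narrow middle range, between WT 7 and WT 8 below and WT 6 and WT 9 above. Tcf7 minus Tox, a factor of exhausted cells, was 3.85, 2.67, 0.65 and -1.51 in KO 1 to KO 4 and 3.53, 2.53, 2.30 and 3.23 in WT 6 to WT 9. In KO 4 alone, Tox (72.8 TPM) exceeded Tcf7. Bcl6 minus Prdm1 ran from -1.21 to 0.12 in KO and from -0.75 to 1.202 in WT libraries, and Bach2 minus Batf, an AP-1 factor, from -4.57 to -3.91 and from -5.53 to -3.17. The groups overlapped in all 4 pairs, and none differed by the two-sided exact permutation test. By exact permutation, the differences were -0.97 for Id3 minus Id2 (p = 0.429), -1.48 for Tcf7 minus Tox (p = 0.343), -0.62 for Bcl6 minus Prdm1 (p = 0.286) and 0.01 for Bach2 minus Batf (p = 0.971). Adjusted over the 4 pairs, these exact permutation p-values were 0.571 for the first 3 and 0.971 for the last. Single libraries moved these values: Id3 minus Id2 differed by -0.18 without WT 6, by -0.39 without WT 9 and by -1.73 without WT 8, and Tcf7 minus Tox by -0.51 without KO 4 and by -2.30 without KO 1. Bcl6 minus Prdm1 differed by -0.29 without WT 6 and by -0.94 without WT 7.

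**Figure D4:**
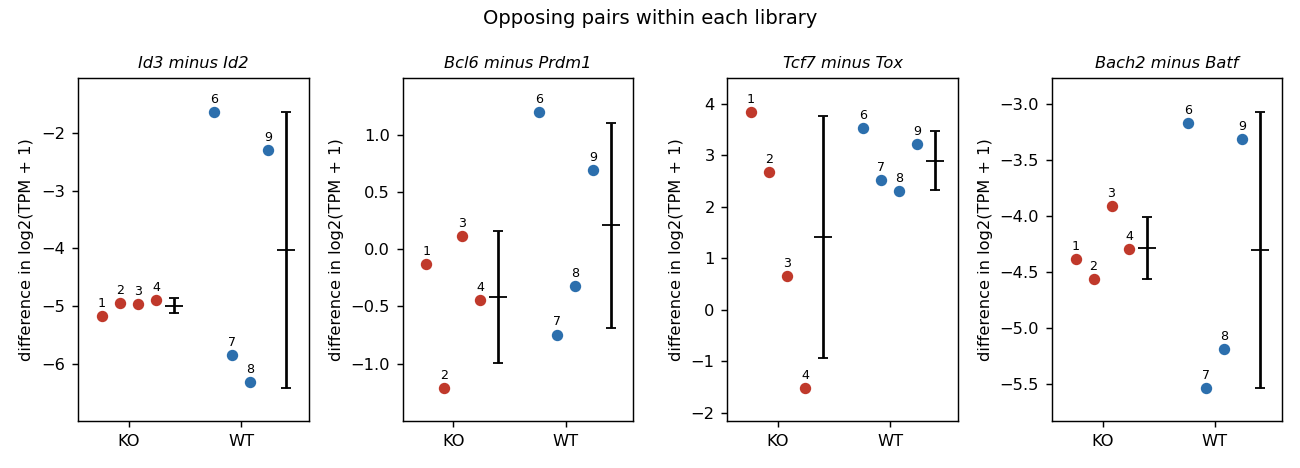
Difference in log2(TPM + 1) between a member and its opposing factor (vertical axes, which differ between panels) in each KO (red) and WT (blue) library, with the mean and SD of each group in black. Id3 minus Id2 stays between -5.18 and -4.88 in KO libraries and runs from -6.30 to -1.65 in WT libraries.

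Surface and homing genes of naive, memory and stem-like cells had mostly lower fitted values in KO: 15 of 17 were negative, beside 44.8% of all genes, and 0 passed the limma threshold. At an unadjusted p under 0.05, 2 of 17 were lower, beside 3.07% of all genes. Ltb, the lymphotoxin beta gene, was at 651, 671, 530 and 421 TPM in KO 1 to KO 4 and 971, 949, 925 and 857 TPM in WT 6 to WT 9 (difference -0.73, limma adjusted p = 0.328). It was the 1 of 17 genes with groups apart, beside 2.4% of all genes lower in KO. Il7r, the interleukin-7 receptor, was at 65.2 to 114 TPM in KO and 109 to 135 TPM in WT libraries (difference -0.46, limma adjusted p = 0.527), and Rasgrp2 had a difference of -0.77 (limma adjusted p = 0.574). Of the 17 genes, 10 had WT 6 and WT 9 above the other 6 libraries, among them Ccr7 and S1pr1, beside 7.43% of all genes tested.

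Genes known as FOXO1 targets or FOXO-responsive genes, some of which, such as Ccr7, Il7r and S1pr1, are also in the list above, gave 10 negative and 4 positive differences among 14 (44.8% of all genes were negative), with 0 past the limma threshold over all genes. Txnip was at 114, 94.3, 91.2 and 55.97 TPM in KO 1 to KO 4 and 194, 130, 142 and 192 TPM in WT 6 to WT 9 (difference -0.90, limma adjusted p = 0.395). Sesn3, a sestrin, had a difference of -0.87 (limma adjusted p = 0.439), and the groups were apart for both genes, 2 of 14, beside 2.4% of all genes. Bcl2l11, the pro-apoptotic BIM gene, went the other way: 24.8 to 48.2 TPM in KO and 8.996 to 26.045 TPM in WT libraries, a difference of 1.06 (limma adjusted p = 0.472).

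Among 24 cofactors and partners of the members, 21 were tested, with 11 positive and 10 negative differences and 0 past the limma threshold. Crebbp, an acetyltransferase, had 13.0 ± 2.11 TPM in KO and 17.6 ± 1.46 TPM in WT cells (SD, n = 4; difference -0.42, limma adjusted p = 0.527). Hdac7 had a difference of -0.47 (limma adjusted p = 0.541) and the β-catenin cofactor Bcl9l of -0.56 (limma adjusted p = 0.626). Ctnnb1, which encodes β-catenin, lay between 15.9 and 26.1 TPM in all libraries. Of 16 relatives of the members, 8 were tested and 0 passed. Id2 was the abundant one, at 660 to 776 TPM across the KO libraries, against 241, 1032, 1063 and 315 TPM in WT 6 to WT 9, where its low libraries were those in which Id3 was high. Id1 had a difference of 0.80 (limma adjusted p = 0.715) and Foxo4 of -0.27 (limma adjusted p = 0.797). Id4 and Foxo6 were listed at 0 in all 8 libraries.

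**Figure D5:**
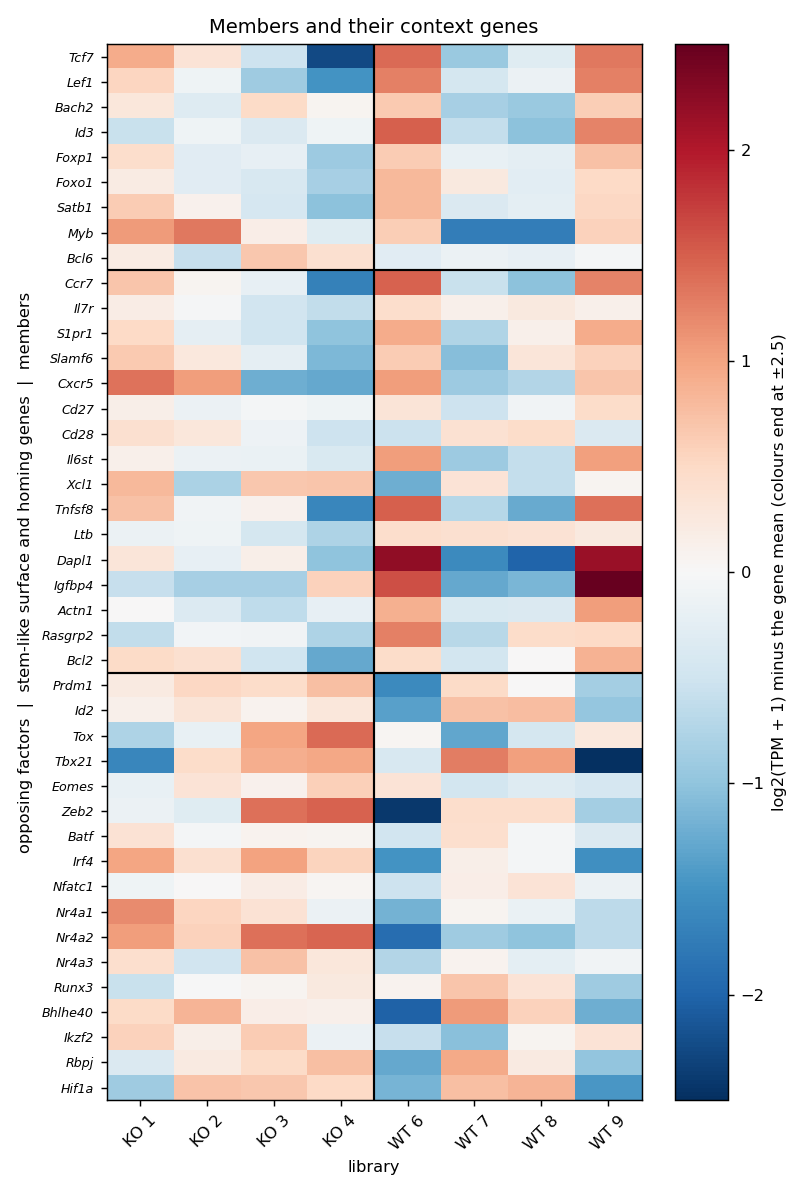
Members (top), surface and homing genes of stem-like cells (middle) and opposing factors (bottom) among the genes tested, with 1 surface gene left out, in the 8 libraries (columns). Colour is log2(TPM + 1) minus the gene's mean, with red above and blue below it; WT 6 and WT 9 are both above every other library in 6 of 9 members, Tcf7, Lef1 and Id3 among them, and KO 4 is the bluest library for Tcf7.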

How the data were processed

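RNA was measured in 8 libraries of 1000 sorted cells by a modified SMART-Seq2 method, per the labels' protocols. The authors deposited 1 table whose values are a score, named by them a TPM-normalized count: whole numbers that are neither raw counts nor TPM. The submitters' processing notes name RSEM 1.3.3 and mm10. The aligner, the annotation and the scaling behind the whole numbers were not given in the sources used here. A score of 1 equalled 0.299 to 0.450 TPM. Without read counts the depth behind a value is unknown, and counting error could not be given.

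Scores were divided by their library's sum and multiplied by 1000000 to give TPM, the unit the chosen test assumed. A gene was tested when 4 or more libraries reached 1 TPM. The test ran on log2(TPM + 1), which understates the change of low genes, with limma 3.58.1 in R 4.3.3 (mean trend, 1 term for genotype) and p-values were adjusted by Benjamini-Hochberg over all genes. Where libraries were left out, the filter asked for as many libraries as the smaller group held. Exact permutation tests enumerated 70 assignments of the absolute difference of means (smallest p 0.0286). The code was tested on simulated data. Python 3.11.15 with pandas 2.3.3 and numpy 2.4.6 computed the remaining values. The members, lists and rules were chosen with earlier results of these data known. The rule names all members, Pglyrp1, the genes of the 4 pairs, the 3 genes of smallest p in each list and the 5 genes nearest to a member; other genes were chosen after their values were seen. Coordinates are from GENCODE M21 (mm10), 1-based. Emr1 stood for Adgre1. Alternatives varied the pseudocount, filter, scaling and limma trend and left out libraries. Values of 2 genes of the lists are not reported here, though the counts over the lists include them.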

Additional observations from a re-analysis of the deposited data

Results flagged for a closer look

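A lone library far from the others of its group was looked for in 27 groups of 4 libraries (the 9 members and Pglyrp1 in TPM and the 4 opposing pairs on the log2 scale, leaving out 1 group listed at 0 throughout). It was found in 0 of them, where chance would mark about 1 in 20.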

How the results depend on the processing

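No paired analysis was possible because KO libraries are numbered 1 to 4 and WT libraries 6 to 9. The number of members past the limma threshold was 0 in all 19 alternatives; at an unadjusted p under 0.05 it was 0 with all libraries. In the 16 alternatives other than leaving out pairs of libraries, the smallest limma adjusted p of a member was 0.349, for Foxo1 without KO 1. Of 143 member values under these 1 changed sign: Bach2 was -0.027 without WT replicate 8, in a range of -0.027 to 0.50 with 1 library left out. Leaving out 1 library gave -1.20 to -0.13 for Tcf7, -1.31 to -0.63 for Lef1, -0.99 to -0.16 for Id3, -0.70 to -0.25 for Foxp1, -0.84 to -0.48 for Foxo1, -0.62 to -0.07 for Satb1, 0.74 to 1.52 for Myb and 0.19 to 0.60 for Bcl6, and 2 to 9 genes past the threshold over the whole table, where all libraries gave 3. Myb had no value with the filter of 5 TPM.

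Leaving out pairs of libraries was chosen after the data were seen, so the direction of the shifts was in part set by the choice. Without KO 3 and 4, 5 genes passed, and Tcf7 was at 0.25, Satb1 at 0.19 and Bcl6 at -0.013. Without WT 6 and 9, 5 genes passed, 3 members were negative, and Tcf7 was at 0.23, Id3 at 0.52 and Satb1 at 0.13. Without all 4, 10 genes passed, 2 members were negative, and Tcf7 was at 1.23, Lef1 at 0.52, Id3 at 0.47, Foxp1 at 0.29, Satb1 at 0.67 and Bcl6 at -0.0053. Bach2 minus Batf was -0.11 with a pseudocount of 5 TPM and ran from -0.40 to 0.39 with 1 library left out; that range was -1.73 to -0.18 for Id3 minus Id2, -2.30 to -0.51 for Tcf7 minus Tox and -0.94 to -0.29 for Bcl6 minus Prdm1. The cause of these changes was not tested. Another scaling moved the share of genes with a negative difference from 44.8% to 49.972% with median ratios, 56.7% with quantile normalization and 58.7% without ribosomal protein and the 20 most abundant genes, and the median of all genes to -0.07 at most.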

Other observations

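The ratio of Lef1 to Tcf7, both in TPM, was computed per library after the members' values were seen. It was 0.475, 0.454 and 0.470 in KO 1 to KO 3 and 1.05 in KO 4, and 0.557, 0.860, 0.681 and 0.591 in WT 6 to WT 9. KO 4 was the only library in which Lef1 exceeded Tcf7. The summed level of the 9 members was 474, 324, 222 and 126 TPM in KO 1 to KO 4 and 715, 203, 243 and 676 TPM in WT 6 to WT 9. Among the genes nearest to Id3, Rrp12 and Pwp2 are ribosome biogenesis factors. Rrp12 was at 6.93, 6.95, 4.19 and 9.68 TPM in KO 1 to KO 4 and at 22.4, 7.20, 4.86 and 16.9 TPM in WT 6 to WT 9.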
